A study of Mus musculus with 8 samples.

Results

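Gene expression was compared between the muscle fibers of adult mice and those of pups at postnatal day 7 (P7), over the 2 arrays labelled Adult and the 2 labelled P7, which are 4 of the 8 arrays of the study. A total of 12029 genes could be tested. Of these, 129 rose (1.07%) and 302 fell (2.51%) from P7 to Adult. A gene is called changed here when both Adult arrays lay above, or both below, the 2 P7 arrays and when its adjusted p was under 0.05. The spread behind these p-values was estimated from all 8 arrays. With the P7 and Adult arrays alone in the fit, 6 genes were called higher and 39 lower.

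The study profiled fibers freed from the EDL (extensor digitorum longus), which lies in the lower hind limb and is made of fast fibers, in mice at 4 ages with 2 biological replicates each. All animals were wild-type, without treatment in the labels. The P7 fibers came from pups of 7 days and the Adult fibers from mice of 3 to 4 months. The other 4 arrays are P3 (pups of 3 days) and Aged (mice of 24 to 25 months). Muscles were taken apart with Collagenase II for 90 minutes, fibers were washed to clear away other cells, RNA was taken up in Trizol, and 1 ng of it was labelled with biotin for a whole-transcript gene array. The source label of the pup samples speaks of pups and their description of 1 pup, so fibers of several pups may have been pooled. A sample is therefore a preparation of many fibers, and p-values measure only the spread between these samples.

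A muscle fiber is a long cell with many nuclei, built by fusion of myoblasts. In the weeks after birth a rodent fiber stops taking in new nuclei at a high rate, loses the embryonic and neonatal myosins for adult fast forms, confines acetylcholine receptors to the synapse and enlarges mainly by growth of its contents. Imprinted genes, which are read from the chromosome of 1 parent only, are known for acting on growth before and shortly after birth. Some of them promote it and others restrain it.

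Levels are given as log2 of the deposited intensity, so a difference of 1 is a doubling, and the order of array values is always replicate 1, then replicate 2. Differences are Adult minus P7 with the standard error (SE) of the fit, and adjusted p-values come from limma with Benjamini-Hochberg adjustment over all 12029 genes. Levels of different genes are not comparable on such arrays. The median of all probe sets was 6.17 and 6.04 in Adult and 6.10 and 6.05 at P7, and a level under it may be background. Both Adult arrays lay under it for 96 of the 302 falls and both P7 arrays for 35 of the 129 rises, and these differences may understate the change. The arrays themselves differed within the Adult group. The mean of 13 fibroblast markers was 10.48 in Adult replicate 1 and 7.32 in Adult replicate 2, against 9.28 and 9.64 at P7, and endothelial, tendon and smooth muscle markers were also higher in Adult replicate 1. The mean of 12 fiber markers was 13.29 and 13.38 in Adult and 13.27 in both P7 arrays. The Y-linked gene Eif2s3y read 3.67 and 8.84 in Adult and 7.94 and 7.04 at P7, while Xist, which is transcribed from an inactive X chromosome, lay between 10.14 and 11.57 in these 4 arrays, so both signals were present together in 3 of the 4. Among 78 tested markers of other cell types, in 9 lists, limma called 0, and 9 had an unadjusted p under 0.05. Over all 12029 genes, 3.58% were called and 2349 had an unadjusted p under 0.05. The Adult arrays lay far apart for several of these lists, so the lack of calls does not show that other cells were unchanged. In such bulk samples, fewer cells of a type and less RNA per cell cannot be told apart.

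Falls were more numerous and larger than rises. The 302 genes called lower fell by 0.89 to 6.32 on the log2 scale, and the 129 called higher rose by 0.82 to 3.79. A change of 3 or more was seen in 50 genes called lower and in 7 called higher. The nearest Adult and P7 arrays were over 1 apart in 261 of the 302 and in 103 of the 129. Without regard to the test, both Adult arrays lay above both P7 arrays for 2236 genes (18.6%) and below them for 3121 (25.9%), while the arrays of 6672 genes overlapped. This split turned with the scaling, to 2764 above and 2515 below after cyclic loess and to 3016 and 2366 with equal housekeeping means. The median difference over all genes was -0.07. It was 0.03 after cyclic loess and 0.05 with equal housekeeping means, a shift of over 0.1 between scalings. Equal housekeeping means gave 143 calls higher and 195 lower, or 42.3% higher, against 29.9% as deposited. No named gene that was called changed its direction under any scaling.

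Which arrays entered the fit decided how many genes passed. Without P7 replicate 1, 46 of the 431 calls remained, and without P7 replicate 2, 61 remained. Leaving out Aged replicate 1 or 2 kept 149 and 147 calls, and leaving out P3 replicate 1 or 2 kept 234 and 232. A group left with 1 array has no spread of its own and is taken to vary like the other groups, and leaving an array out cannot make a gene overlap. Without Adult replicate 1 the calls grew to 649 higher (5.4%) and 1129 lower (9.39%), and without Adult replicate 2 to 767 higher (6.38%) and 1125 lower (9.35%), so that all 431 calls remained there is no sign of stability. The median SD of a gene was 0.35 in Adult and 0.19 at P7. A set of 36 genes kept the call whichever of the 8 arrays was left out, 31 of them lower in Adult. Among these 36 are Myh8, Dlk1, Igf2, Meg3, Kcne1l, Atp1b4, Mymk, Mki67 and Ryr3, which fell, and Aldh1a1, Ces1d, Cd55 and Lrrc30, which rose.

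Imprinted genes were among the falls, 14 of 21 tested in a list of growth genes and 19 of 31 in a cluster on chromosome 12. Over all genes, 2.51% were called lower and 1.07% higher. Of 22 imprinted growth genes on the array, 21 were tested and all 21 had a negative difference. In that list 14 were called lower and 0 higher, and its median was -2.60 against -0.07 over all genes. Dlk1, a transmembrane protein of the Notch ligand family that is made by immature muscle, read 12.73 and 13.16 at P7 and 7.20 and 6.72 in Adult. The difference was -5.98 ± 0.28 (SE, adjusted p = 3.79e-04 by limma). Meg3, the long noncoding RNA transcribed from the other parental copy beside Dlk1, read 13.30 and 13.23 at P7 and 9.71 and 9.35 in Adult (-3.74 ± 0.24, adjusted p = 0.00107 by limma). For both genes the pair of P7 arrays lay far above the pair of Adult arrays, with little spread inside either pair. Rian, a noncoding RNA that hosts small nucleolar RNAs, read 8.63 and 7.38 at P7 and 5.13 and 4.23 in Adult. Rtl1, a retrotransposon-derived gene needed in placenta and muscle development, read 6.77 and 6.64 at P7 and 5.48 and 5.40 in Adult.

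The same stretch of chromosome 12, from Dlk1 to Dio3, holds one of the largest groups of microRNA genes of the mouse. MicroRNAs are short RNAs that pair with messenger RNAs through their seed, bases 2 to 8. Across the cluster 19 of 31 tested genes were called lower (61.3%), whereas 6 of the other 406 tested genes of chromosome 12 were (1.48%). The array has probe sets for 40 microRNA genes of the cluster. Of these, 26 passed the filter on low values, 25 of the 26 had a negative difference and 14 were called lower. A filter that a gene can pass through its P7 arrays alone favours genes that fall. Without any filter, both Adult arrays lay below both P7 arrays for 35 of the 40, where 18% of all 19937 genes lay lower, 15 were called lower, where 1.33% of all genes were, and the median was -1.69 against 0.09. Among microRNA probe sets elsewhere in the genome 69 were tested, 1 was called lower (Mir181b-1, -1.20 ± 0.19) and their median was 0.16. These probe sets read the transcript over the hairpin and not the mature microRNA. The cluster and its microRNAs were taken up after their values had been seen.

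The mature forms found in RefSeq for the 5 microRNA genes that kept the call without any single array are shown here. Their seeds set which messages they could pair with. For Mir485 only the 3p form was found. Sequences and positions are those of RefSeq for GRCm38.p6, all on the plus strand, 5′ to 3′, with the seed in capitals.
mmu-miR-382-5p, chr12:109733781-109733802: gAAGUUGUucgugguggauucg
mmu-miR-382-3p, chr12:109733819-109733840: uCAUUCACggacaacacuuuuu
mmu-miR-134-5p, chr12:109734145-109734166: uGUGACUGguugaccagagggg
mmu-miR-134-3p, chr12:109734184-109734203: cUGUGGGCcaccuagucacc
mmu-miR-485-3p, chr12:109734946-109734967: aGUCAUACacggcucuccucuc
mmu-miR-412-5p, chr12:109743303-109743325: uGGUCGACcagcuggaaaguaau
mmu-miR-412-3p, chr12:109743340-109743359: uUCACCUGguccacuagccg
mmu-miR-369-5p, chr12:109743431-109743452: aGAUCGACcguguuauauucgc
mmu-miR-369-3p, chr12:109743466-109743486: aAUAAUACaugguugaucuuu
All 14 microRNA genes called lower were found in the RefSeq table, with 25 mature arms. Mir487b and Mir539 were found with their 5p arm only and Mir485 with its 3p arm only. Those 25 arms have 25 distinct seeds, so no seed is shared among the arms found. Of the 25, 5 share a seed with a microRNA encoded elsewhere, for example miR-329-3p with miR-362-3p and miR-377-5p with miR-672-5p.

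For 13 of the 14, both Adult arrays lay under the array median, so their differences may be understated and their order is not read. Mir382 went from 10.05 and 8.60 at P7 to 4.25 and 4.10 in Adult (-5.15 ± 0.48, adjusted p = 0.00321 by limma). Mir134 went from 11.06 and 10.36 to 6.93 and 6.74 (-3.87 ± 0.29). Both Adult arrays of both genes lay at least 3 log2 units below the lower P7 array. Mir485 (-3.73), Mir369 (-3.57) and Mir412 (-3.05) were the others that kept the call throughout. Mir377 (-3.95), Mir539 (-3.65), Mir323 (-3.52), Mir329 (-3.05), Mir380 (-2.87), Mir300 (-2.82), Mir487b (-2.80), Mir679 (-2.41) and Mir665 (-1.79) were the other 9 called. P7 replicate 1 was the higher P7 array for each of the 14, by 0.23 in Mir665 and by 2.14 in Mir539, whereas the Adult arrays differed by at most 0.63 in any of them. The mean over the 26 was 8.10 and 7.11 at P7, and 5.50 and 5.30 in Adult. A small nucleolar RNA of the cluster listed as DQ267102 read 12.33 and 12.61 at P7 and 9.17 and 8.62 in Adult (-3.58 ± 0.33). Of the 19 cluster genes, 9 kept their call without P7 replicate 1 (adjusted p of those lost 0.0536 to 0.229), 16 without P7 replicate 2 (0.0515 to 0.245) and 12 without either Aged array. Dlk1, Meg3, Mir382, Mir134, Mir485, Mir369 and Mir412 kept it without any 1 array.

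**Figure D1:**
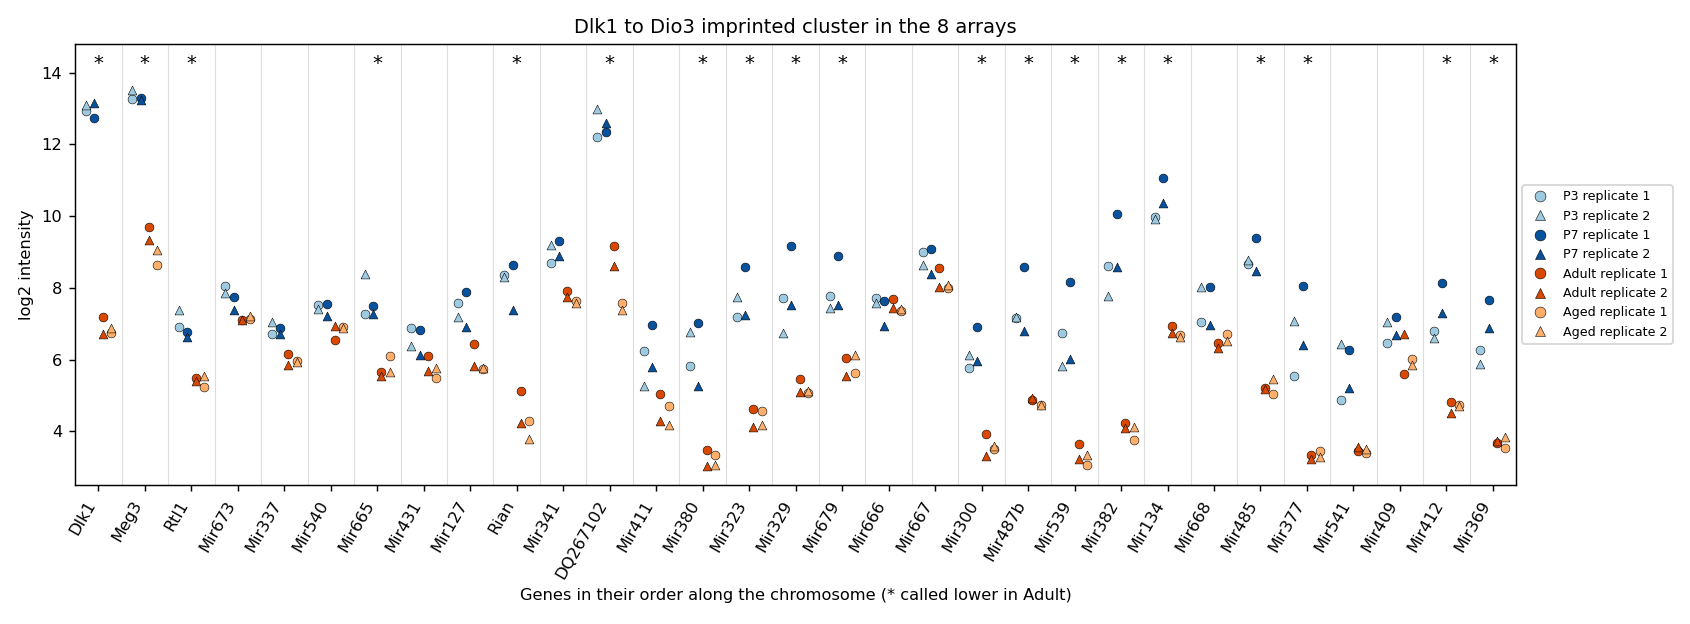
Log2 intensity of the 31 tested genes of the Dlk1 to Dio3 cluster in each of the 8 arrays, in their order along the chromosome, with circles for replicate 1 and triangles for replicate 2 of each age and a star for the 19 genes called lower. For every starred gene the P7 points lie above the Adult points, which a call requires. In replicate 2 they read from 13.16 against 6.72 for Dlk1 to 7.27 against 5.53 for Mir665.

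Several imprinted genes on other chromosomes fell too. Igf2, the fetal insulin-like growth factor, read 13.37 and 13.66 at P7 and 9.35 and 8.44 in Adult (-4.62 ± 0.33, adjusted p = 0.00135 by limma). Ndn, a MAGE family protein that restrains growth, read 11.03 and 10.87 at P7 and 7.38 and 5.84 in Adult, and Mest, a hydrolase-like protein of mesoderm, 11.06 and 11.07 against 7.66 and 6.33. In both, Adult replicate 1 was the higher Adult array by over 1, which is the array with more fibroblast and vessel markers, and the part of those cells in the residual level was not tested. Cdkn1c, an inhibitor of cyclin-dependent kinases, fell by 3.23, Zim1 fell by 2.90 and Plagl1, a zinc finger factor that acts on many other imprinted genes, fell by 2.60. Grb10, an adaptor that restrains insulin and IGF receptors, fell by 2.61 with 12.02 and 12.11 at P7 against 9.54 and 9.38. Peg3 fell by 1.60 and Igf2r, which takes up IGF2 for breakdown, by 1.21. Of these 9 and Gatm, also counted in this list, 1 (Igf2) kept the call without either P7 array (adjusted p of the others 0.0519 to 0.298), and Gatm, Peg3 and Igf2r also lost it without any 1 of the P3 or Aged arrays (0.0561 to 0.144). The imprinted list held 16 genes called lower without Adult replicate 1 and 17 without Adult replicate 2, in fits that called 9.39% and 9.35% of all genes lower.

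Of 29 IGF and insulin genes tested, 4 were called lower and 0 higher, where 2.51% and 1.07% of all genes were. Their median was -0.60, and 17 lay lower without overlap, where 25.9% of all genes did. The 4 were the imprinted genes Igf2, Igf2r and Grb10, and Tbc1d4. Tbc1d4, which holds glucose transporters inside the cell until insulin acts, read 8.81 and 9.21 at P7 and 7.72 and 7.06 in Adult (-1.62 ± 0.31, adjusted p = 0.0377 by limma). It lost the call without any 1 of the P3, P7 or Aged arrays, with adjusted p between 0.075 and 0.27. Igf1r, the receptor for both IGFs, read 10.06 and 10.46 at P7 and 9.29 and 9.16 in Adult and was not called (adjusted p = 0.0726 by limma). Igf1 read 8.54 and 8.39 at P7 against 8.96 and 6.53, so its arrays overlapped.

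Developmental and slow genes of the sarcomere fell in many members, and 1 fast gene was called. Of 13 developmental sarcomere genes, 7 were called lower and 0 higher, with a median of -1.39. Of 14 slow sarcomere genes, 9 were called lower and 0 higher, with a median of -2.69, and all 14 had a negative difference. Of 16 fast sarcomere genes, 0 were called lower and 1 higher, with a median of 0.07. Over all genes tested, 2.51% were called lower and 1.07% higher, and the median was -0.07. Tnni1 and Myom3 count in both of the lists that fell.

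Myh8, the neonatal myosin heavy chain, read 12.99 and 13.43 at P7 and 8.71 and 7.18 in Adult (-5.26 ± 0.47, adjusted p = 0.0030 by limma). Myh3, the embryonic heavy chain, read 9.87 and 10.65 at P7 and 6.46 and 5.24 in Adult (-4.41 ± 0.49). Adult replicate 1 was the higher Adult array for both, and still lay over 3 below the nearer P7 array. Actc1, the cardiac actin used in fetal skeletal muscle, read 13.73 and 13.58 at P7, 12.18 and 12.39 in Adult and 10.93 and 10.84 in Aged. Myl4, the embryonic and atrial essential light chain, fell by 1.39 and Myl6b, a nonmuscle-type light chain, by 2.28 (adjusted p = 0.0489 by limma). Of these 5, Myh8 alone kept its call without either P7 array, where the other 4 had adjusted p between 0.0533 and 0.297. Myl4 and Myl6b also lost it without any 1 of the P3 or Aged arrays (0.064 to 0.112).

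In the slow list, Casq2, the calsequestrin of slow and cardiac muscle, read 11.95 and 11.86 at P7 and 8.32 and 6.74 in Adult (-4.37 ± 0.54, adjusted p = 0.00856 by limma). Myh7, the slow heavy chain, read 11.22 and 11.95 at P7 and 8.19 and 7.75 in Adult (-3.61 ± 0.41). Myl3, a slow essential light chain, read 10.06 and 11.10 at P7 and 7.26 and 7.48 in Adult (-3.21 ± 0.45). In all of these, P7 and Adult are separated by more than the spread inside either pair. Tnni1 (-2.88), Myoz2 (-2.78), Tnnt1 (-2.73), Tnnc1 (-2.69), Myl2 (-2.69) and Myom3 (-2.40) were the other members called, troponins, a light chain and Z-disc or M-band proteins. The Aged arrays stood between the other ages for several of them, with Myh7 at 9.19 and 10.22 and Myl3 at 8.60 and 9.61. None of the 9 kept its call without P7 replicate 1 (adjusted p 0.0518 to 0.111) or without P7 replicate 2 (0.0748 to 0.221), Myom3 also lost it without either Aged array (0.0523 to 0.0527), and all 9 kept it without either P3 array.

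Mylk2, the kinase of the skeletal regulatory light chain, was the fast gene that rose, from 11.38 and 11.40 at P7 to 12.20 and 12.73 in Adult (1.08 ± 0.21, adjusted p = 0.0407 by limma). It no longer passed with no filter on low values, or without any 1 of the P3 (adjusted p 0.0725 to 0.0733), P7 (up to 0.246) or Aged arrays (0.125 to 0.126). The adult fast heavy chains were not called. Myh4, the chain of IIb fibers, read 13.52 and 13.18 at P7 and 13.54 and 13.45 in Adult, and was lower in P3, at 11.43 and 11.68. Myh1, the IIx chain, read 13.33 and 13.30 at P7 and 13.26 and 12.14 in Adult, and Myh2, the IIa chain, 12.20 and 12.12 against 11.19 and 10.23. Myh2 did not overlap but had an adjusted p of 0.131 by limma. Acta1, the skeletal actin, read 14.17 and 14.18 at P7 and 13.95 and 14.18 in Adult. Among 30 scaffold and assembly genes of the sarcomere limma called 0, and 9 had an unadjusted p under 0.05.

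**Figure D2:**
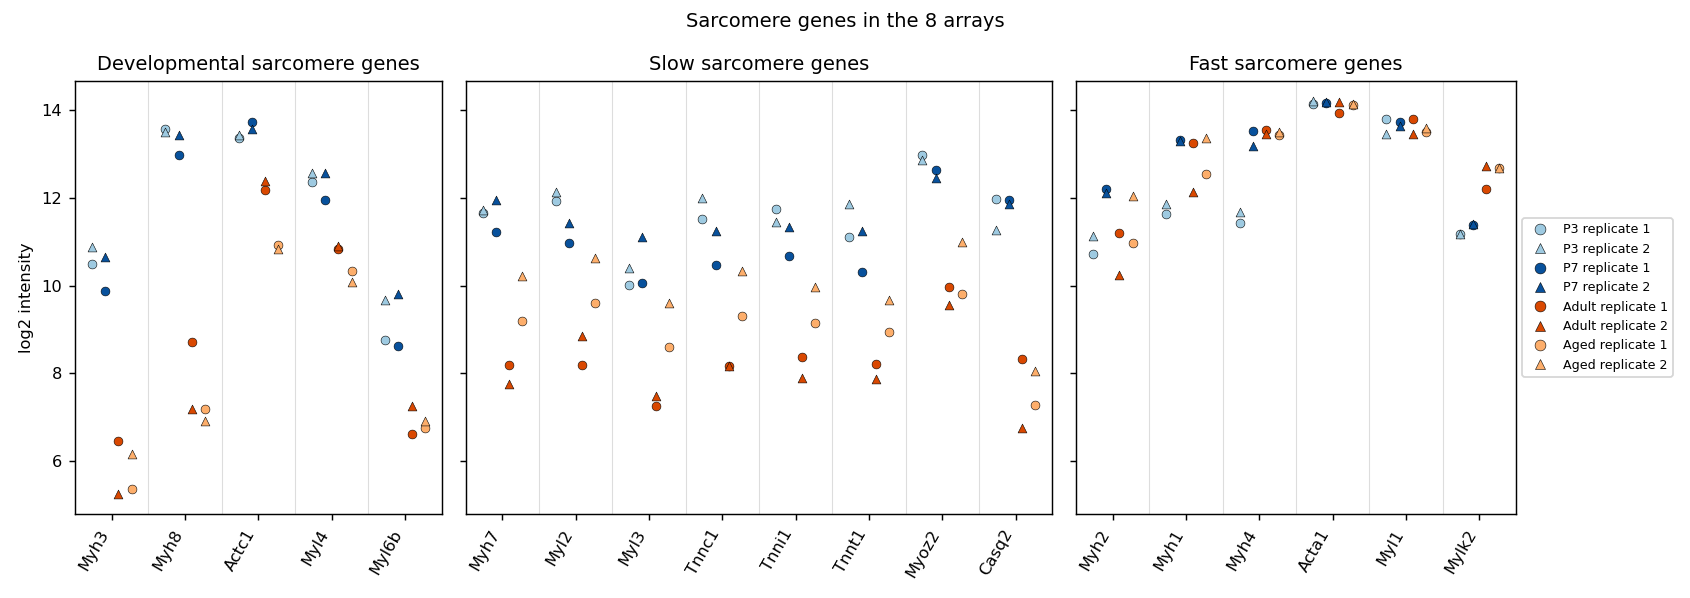
Log2 intensity of developmental, slow and fast sarcomere genes in each of the 8 arrays, with circles for replicate 1 and triangles for replicate 2 of each age. Developmental and slow genes sit lower in Adult than at P7 (Myh8 8.71 and 7.18 against 12.99 and 13.43), while Myh4 lies between 13.18 and 13.54 in the P7 and Adult arrays and between 11.43 and 11.68 at P3.

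Of the 21 tested genes for channels and pumps, 3 were called lower (Kcne1l, Atp1b4 and Aqp4) and 0 higher, with a median of -0.09. Over all genes 2.51% were called lower and the median was -0.07. Kcne1l, a single-pass partner of voltage-gated potassium channels, had the largest difference of any gene called lower, reading 11.78 and 11.93 at P7 and 5.28 and 5.80 in Adult (-6.32 ± 0.26, adjusted p = 3.78e-04 by limma). Atp1b4, a beta subunit relative of the sodium pump that in placental mammals works at the nuclear envelope of perinatal muscle, read 13.16 and 12.87 at P7 and 7.42 and 6.84 in Adult (-5.88 ± 0.34, adjusted p = 0.00102 by limma). Neither gene came near an overlap, and both kept the call without any 1 array. Aqp4, the water channel of fast fibers, read 10.64 and 9.92 at P7 and 8.58 and 7.94 in Adult (-2.02 ± 0.38). Scn3b, a beta subunit of sodium channels that was picked after its values were seen, fell from 9.21 and 9.37 to 6.39 and 6.65.

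Among 28 genes of calcium release and reuptake, 2 were called lower, where 2.51% of all genes were, and 0 higher, with a median of -0.29. Ryr3, the second ryanodine receptor of immature muscle, read 8.04 and 8.17 at P7 and 5.20 and 4.83 in Adult (-3.09 ± 0.21, adjusted p = 0.00115 by limma). Casq2, given above, was the other. The main adult forms were not called, with Ryr1 at 12.38 and 12.25 against 12.44 and 12.25 and Casq1 at a difference of -0.32 ± 0.16. Sln, an inhibitor of the calcium pump, read 7.12 and 7.33 at P7 and 5.61 and 5.70 in Adult, with an adjusted p of 0.0534 by limma. The pumps Atp2a1 (0.09) and Atp2a2 (-1.87, adjusted p = 0.119 by limma) were not called either.

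At the neuromuscular junction every tested gene had a negative difference and few passed. Of 24 genes tested, 4 were called lower, where 2.51% of all genes were, 0 higher, and the median was -0.82. With no filter, 13 of 26 lay lower without overlap and 1 higher, where 18% of all genes lay lower and 29.5% higher. Chrna1, the alpha subunit of the muscle acetylcholine receptor, read 10.21 and 10.61 at P7 and 8.20 and 8.14 in Adult (-2.24 ± 0.27, adjusted p = 0.00761 by limma). Ncam1, an adhesion protein spread over the surface of immature fibers, read 10.51 and 10.98 against 8.28 and 8.14 (-2.53 ± 0.30). Chrna9 fell by 2.15 and Erbb4, a neuregulin receptor, by 1.74. The Adult arrays of these 4 genes differed by at most 0.54. Chrng, the fetal receptor subunit, read 7.30 and 8.21 at P7 and 5.62 and 6.29 in Adult without overlap (adjusted p = 0.0872 by limma). Its adult counterpart Chrne read 8.79 and 8.72 against 8.38 and 9.04, which overlapped.

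Around the dystrophin complex and the fiber surface, 4 of 23 genes were called lower, where 2.51% of all genes were, and 0 higher. Their median was -0.70. Sntb1, a syntrophin, read 10.94 and 10.84 at P7 and 8.22 and 7.25 in Adult (-3.16 ± 0.42, adjusted p = 0.0116 by limma). Itgb1bp2, or melusin, which binds the tail of integrin beta 1, fell by 2.03, Sspn (sarcospan) by 2.01 and Tln2, a talin of muscle attachment sites, by 1.51. Of the 14 membrane, calcium and junction genes named as called, Kcne1l, Atp1b4, Scn3b and Ryr3 kept the call without any 1 array and Chrna9 without P7 replicate 1. The others lost it without P7 replicate 1 (adjusted p 0.0556 to 0.197) or P7 replicate 2 (0.0634 to 0.199), Aqp4 and Tln2 without either P3 array (0.0534 to 0.0565), and Aqp4, Sspn and Tln2 without either Aged array (0.0661 to 0.0918).

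Many of the largest falls came from the X chromosome, which held 7 of the 15 named largest falls. Of 356 X-linked genes tested, 29 were called lower (8.15%) and 7 higher (1.97%), against 273 of 11673 other genes lower (2.34%). Single autosomes ranged from 0.613% to 5.72% lower, the highest being chromosome 12 with its imprinted cluster. With no filter, 30 of 739 X-linked genes were called lower (4.06%), against 1.23% of the rest. The median difference was -0.23 on the X chromosome and -0.07 over the other genes tested, but 0.08 and 0.09 with no filter. With no filter, 205 of the 739 X-linked genes lay higher without overlap and 174 lower, where 29.5% and 18% of all genes did. X-linked genes were grouped after their values had been seen, and the unlike Eif2s3y levels of the 2 Adult arrays given above stand beside these counts. Without Adult replicate 1, which has the low Eif2s3y level, 71 X-linked genes were called lower beside 1058 of the 11673 others, and without Adult replicate 2, 59 were beside 1066, so calls also grew outside the X chromosome in these fits.

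Besides Kcne1l and Atp1b4, the named X-linked falls include Prr32, which read 10.51 and 10.88 at P7, 5.26 and 5.31 in Adult and 7.90 and 7.20 in Aged (-5.41 ± 0.31, adjusted p = 0.00102 by limma). Fndc3c1, a protein with fibronectin type III repeats, read 10.30 and 10.47 at P7 and 5.37 and 5.11 in Adult (-5.15 ± 0.32). Nrk, a kinase of the germinal centre kinase family found in developing muscle, read 8.84 and 9.84 at P7 and 4.94 and 4.61 in Adult (-4.56 ± 0.35). For these 3 genes no Adult array came within 3 of a P7 array. Capn6, a calpain without protease activity, fell by 4.44, and Maged2, a MAGE family protein, fell by 4.32. Further falls named after their values were seen were Igsf1 (-3.61), Gpr50, an orphan receptor related to melatonin receptors (-3.56), Pdk3, a kinase that shuts off pyruvate dehydrogenase (-3.24), Hs6st2, a heparan sulfate sulfotransferase (-3.22), Gpc4, a glypican (-2.17), and Itm2a (-2.01). Srpk3, a kinase of splicing factors made in muscle, fell by 1.88 and was the single call among 14 tested splicing regulators. Maob, a mitochondrial monoamine oxidase, was an X-linked rise, from 5.98 and 5.68 to 8.11 and 7.68 (2.06 ± 0.24), and it lost the call without P7 replicate 1 or 2.

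Of the 29 X-linked falls, 8 kept the call without any 1 array: Kcne1l, Atp1b4, Prr32, Fndc3c1, Nrk, Maged2, Igsf1 and Gpr50. Without P7 replicate 1 the number kept was 10 (adjusted p of those lost 0.0546 to 0.189), and it was 10 without P7 replicate 2 (0.0501 to 0.286), 22 without either P3 array (0.0503 to 0.0824) and 17 without either Aged array (0.0537 to 0.149). Capn6 was lost only without P7 replicate 2, and Pdk3 and Srpk3 were lost without any 1 of the P3, P7 or Aged arrays. Tecrl, an autosomal gene of the endoplasmic reticulum linked to heart rhythm, was also among the 15 largest falls and kept its call without any 1 array, reading 8.20 and 8.12 at P7 and 4.00 and 3.70 in Adult (-4.31 ± 0.38).

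Of 25 cell division genes tested, 10 were called lower and 0 higher, where 2.51% and 1.07% of all genes were, with a median of -0.98. With no filter, 12 of the 32 on the array were called lower, where 1.33% of all genes were, both Adult arrays lay below both P7 arrays for 27, where 18% of all genes lay lower, above for 0, and the median was -0.97. Mki67, the Ki-67 protein of dividing nuclei, read 8.04 and 7.89 at P7 and 5.07 and 5.22 in Adult (-2.82 ± 0.23, adjusted p = 0.00221 by limma). Top2a, the topoisomerase of chromosome separation, read 7.18 and 6.77 at P7 and 4.84 and 4.57 in Adult (-2.27 ± 0.24). The 2 groups were clearly apart in both. Ccna2 (-2.10), Kif11 (-2.08), Ccnb2 (-1.67), Prc1 (-1.61), Ccne1 (-1.59), Ect2 (-1.51), Cdk1 (-1.50) and Rrm2 (-1.32) followed, which are cyclins, a cyclin-dependent kinase, spindle and cytokinesis proteins and a ribonucleotide reductase subunit. Nuclei inside fibers do not divide, and dividing cells that stay attached to fibers, such as satellite cells, have these transcripts. None of 15 satellite cell markers was called by limma, but their median was -0.66, 6 of the 15 lay lower in both Adult arrays (25.9% of all genes did) and 5 had an unadjusted p under 0.05, of the 9 such markers over all other cell types. The part of such cells in these falls was not tested. Mki67 kept its call without any 1 array and Top2a was lost only without P7 replicate 1. The others lost it without either P7 array (adjusted p 0.057 to 0.227), 7 of the 10 without Aged replicate 2 (0.0507 to 0.0901), 6 without Aged replicate 1, and Ccnb2 also without either P3 array.

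Promoters of such genes are known for a cell cycle homology element, with the letters TTTGAA, and for CCAAT boxes. The promoter window in RefSeq (GRCm38.p6), 250 bases before to 50 after the gene start, was searched for both on both strands. TTTGAA was present in 7 of the 9 called genes that have an entry, in 4 of the 12 that were tested without a call, in 13.5% of all 9578 tested genes with an entry and in 20.2% of all 27025 genes in the table. CCAAT was present in 8 of 9, in 8 of 12, in 42.2% and in 41.1%. Rrm2 and Ccne1 lacked TTTGAA in this window, and Ccna2 has no entry. A match is only a match of letters, and it was not tested as a site. The windows of Mki67 and Cdk1 are shown as examples with matches in pairs, both on the minus strand of the chromosome and read 5′ to 3′ toward the gene, with TTTGAA in capitals.
Mki67, chr7:135716330-135716629: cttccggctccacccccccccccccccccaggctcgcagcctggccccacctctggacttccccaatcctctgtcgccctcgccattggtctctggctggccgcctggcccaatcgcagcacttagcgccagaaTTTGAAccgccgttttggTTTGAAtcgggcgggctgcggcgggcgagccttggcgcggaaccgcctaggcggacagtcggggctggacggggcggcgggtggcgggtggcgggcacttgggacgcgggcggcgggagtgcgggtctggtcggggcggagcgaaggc
Cdk1, chr10:69352863-69353162: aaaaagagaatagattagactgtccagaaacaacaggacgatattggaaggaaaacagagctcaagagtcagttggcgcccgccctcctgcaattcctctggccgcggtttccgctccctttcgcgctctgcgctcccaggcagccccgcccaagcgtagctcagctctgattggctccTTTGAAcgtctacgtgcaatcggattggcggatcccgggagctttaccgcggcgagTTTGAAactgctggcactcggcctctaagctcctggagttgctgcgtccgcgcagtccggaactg
Counted from the gene start, the matches of Mki67 begin at -116 and -98 and those of Cdk1 at -71 and -15.

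Calls among fusion and fetal regulators were all lower, where 2.51% of all genes were called lower. Mymk (myomaker), the membrane protein that lets myoblasts fuse, read 10.32 and 10.93 at P7 and 6.44 and 6.67 in Adult (-4.07 ± 0.29, adjusted p = 0.00135 by limma). It was the single call among 28 myogenic regulators and fusion genes, whose median was -0.50. Mymx, its partner in fusion, read 6.84 in both P7 arrays and 6.08 and 6.48 in Adult and was not called. Myod1 and Myog, the myogenic transcription factors, split the Adult pair, with Myod1 at 9.26 and 12.90 and Myog at 5.67 and 9.39, on either side of their P7 levels. In the fetal RNA-binding list, 2 of 15 tested genes were called lower. Igf2bp3, which binds the Igf2 message, read 7.54 and 7.68 at P7 and 5.33 and 5.09 in Adult (-2.40 ± 0.22), and Sox11, a fetal transcription factor, 8.26 and 8.95 against 4.44 and 5.50 (-3.63 ± 0.42). Mymk and Igf2bp3 kept the call without any 1 array. Sox11 lost it without P7 replicate 1 or 2 (adjusted p up to 0.0772).

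Several genes that supply a growing fiber with amino acids and creatine fell. They were grouped after their values had been seen, so their counts are a description. Gatm and Gamt carry out the successive steps of creatine synthesis. Gatm read 12.34 and 12.33 at P7 and 9.52 and 7.01 in Adult (-4.07 ± 0.69, adjusted p = 0.0267 by limma), and Gamt 11.43 and 12.20 against 8.77 and 9.86 (-2.50 ± 0.42). Both Adult arrays lay below P7 for both genes, which a call requires, though they were 2.51 apart for Gatm, with Adult replicate 1 the higher. Ckm, the creatine kinase of muscle, read 13.85 and 13.89 at P7 and 13.75 and 14.07 in Adult, and the creatine transporter Slc6a8 11.16 and 10.78 against 10.12 and 11.36, both with overlap.

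Serine and folate enzymes moved in both directions. Of 15 tested, 3 fell and 1 rose, where 2.51% and 1.07% of all genes did, with a median of -0.87. Aldh1l2, which oxidises formyl-folate in mitochondria, read 8.42 and 8.71 at P7 and 6.41 and 6.47 in Adult (-2.12 ± 0.21, adjusted p = 0.00442 by limma). Phgdh, the first enzyme of serine synthesis, fell from 7.94 and 8.70 to 6.38 and 6.71, and Mthfd2l fell by 1.07. Aldh1l1, the cytosolic relative of Aldh1l2, rose from 5.41 and 5.43 to 7.40 and 6.54 (1.55 ± 0.28). So the mitochondrial form fell where the cytosolic form rose. In proline and ornithine metabolism, Aldh18a1, which makes proline from glutamate, fell by 1.79. Prodh, which breaks proline down, rose by 1.24, Oat, the ornithine aminotransferase, by 1.06 and Smox, spermine oxidase, by 2.08.

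Of 25 tested amino acid transporters, 5 were called lower, where 2.51% of all genes were, and 0 higher. Their median was -0.44 against -0.07 over all genes. With no filter, 4 of 28 were called lower, where 1.33% of all genes were, and the median was -0.06 against 0.09. Slc38a1, a glutamine carrier, read 10.17 and 10.62 at P7 and 6.32 and 7.58 in Adult (-3.44 ± 0.43, adjusted p = 0.00879 by limma). Slc6a13, which carries GABA and taurine, fell from 7.98 and 8.61 to 5.81 and 5.43 (-2.68 ± 0.27). Slc1a4 for neutral amino acids (-2.10), Slc7a1 for arginine and lysine (-1.74) and Slc3a1 (-1.40) completed the 5. Of the 11 amino acid and creatine genes that fell, Aldh1l2 and Slc6a13 kept the call without any 1 array. The others lost it without P7 replicate 1 (adjusted p 0.0581 to 0.184) or P7 replicate 2 (0.108 to 0.264), all but Aldh18a1 and Slc38a1 without either P3 array (0.0549 to 0.0864), and all but Slc38a1 without either Aged array (0.0621 to 0.13). The 4 that rose (Aldh1l1, Prodh, Oat and Smox) were lost without either P7 array (0.105 to 0.255) or either Aged array (0.0527 to 0.144), and all but Prodh without either P3 array.

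Some other falls, also named after their values were seen, lie in the basement membrane. Frem2 read 9.17 and 9.60 at P7 and 6.33 and 5.91 in Adult (-3.26 ± 0.29, adjusted p = 0.0030 by limma), and Fras1, which forms a complex with it in embryonic basement membranes, 9.51 and 10.04 against 5.49 and 6.66 (-3.70 ± 0.39). Npnt (nephronectin), an integrin ligand of the same sheet, fell from 9.69 and 10.16 to 7.01 and 7.05. Tet1 and Tet2, which oxidise methylcytosine in DNA, fell by 2.03 and 2.51, and Tet3 read 9.16 and 10.03 against 7.99 and 8.88 without a call. Gadl1, a decarboxylase that makes beta-alanine for carnosine, fell by 2.65, and Pcbd1, a cofactor of HNF1 that also recycles tetrahydrobiopterin, fell by 2.67. Frem2, Gadl1 and Pcbd1 kept the call without any 1 array, and Fras1, Npnt, Tet1 and Tet2 lost it without either P7 array (adjusted p up to 0.264), Tet1 and Tet2 without either Aged array and Tet1 without either P3 array.

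Rises were fewer than falls, and outside the small nucleolar RNAs the largest were those of Aldh1a1, Cbr2 and Ces1d. Aldh1a1, a retinaldehyde dehydrogenase, rose from 6.79 and 6.46 at P7 to 10.25 and 10.17 in Adult (3.58 ± 0.26, adjusted p = 0.00135 by limma). It read 5.35 and 4.95 at P3 and 10.99 and 11.20 in Aged. Cbr2, a carbonyl reductase, read 5.71 and 5.43 at P7 and 7.79 and 10.27 in Adult (3.46 ± 0.68), and Ces1d, a carboxylesterase that also cleaves stored fat, 4.05 and 4.40 against 7.61 and 7.54 (3.35 ± 0.21). All 3 lay above P7 in both Adult arrays, which a call requires, and Cbr2 had the widest Adult spread. Aldh1a1 and Ces1d were the calls among 21 tested retinoid and aldehyde genes, where 1.07% of all genes were called higher. The median of that list was 0.22.

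Glutathione transferases, which couple glutathione to reactive molecules, rose in several members. Of 22 on the array 14 were tested, and 5 were called higher and 0 lower, where 1.07% and 2.51% of all genes were. With no filter, 5 of 22 were called higher, where 0.627% of all genes were. In that fit 9 of 22 lay higher without overlap and 1 lower, where 29.5% of all genes lay higher and 18% lower. Gstm2 read 8.06 and 7.98 at P7 and 10.20 and 10.56 in Adult (2.36 ± 0.26, adjusted p = 0.00651 by limma). Gstm1 rose by 2.20, Mgst1 by 1.99, Gstk1 by 1.74 and Gstm3 by 1.72. Members of the Gstm family have near-identical copies, so probe sets may read more than one of them. Mgst1 read 6.92 and 7.33 in Adult, 5.05 and 5.22 at P7 and 5.31 and 5.48 in Aged, so the Aged arrays were near the pups. Sqor, which oxidises hydrogen sulfide in mitochondria, rose from 6.16 and 6.18 to 8.80 and 9.35 (2.90 ± 0.30, adjusted p = 0.00483 by limma). Ethe1, the next enzyme of sulfide breakdown, rose by 1.41 and Selenbp1, a methanethiol oxidase, by 1.33. So 3 of 10 tested sulfide genes were called higher, where 1.07% of all genes were, and 0 lower. Both families were chosen after their values were seen. Of these 8 genes none kept its call without either P7 array (adjusted p 0.0519 to 0.24), Ethe1 and Selenbp1 lost it without either P3 array, and these with Gstm1, Gstm3 and Gstk1 without either Aged array.

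Lrrc30, a leucine-rich repeat protein found in skeletal muscle, read 6.58 and 6.48 at P7 and 9.54 and 9.43 in Adult (2.96 ± 0.22, adjusted p = 0.00143 by limma). Cd55, which protects cells from complement, read 6.04 and 6.17 at P7 and 8.76 and 8.77 in Adult (2.66 ± 0.22) and was the call among 9 tested complement genes. Abcb4, a phospholipid transporter, read 8.41 and 8.12 against 10.38 and 10.74 (2.29 ± 0.25). Each Adult pair lay well above its P7 pair, and the pairs themselves were close. Tspan8 (3.02), Cyb5a, the electron donor cytochrome b5 (2.32), Cntfr, the receptor for ciliary neurotrophic factor (2.49), Ackr1, a chemokine-binding receptor known from venules and red cells (2.30), and Pla2g7, a secreted phospholipase (2.20), completed the largest rises, with Vaultrc5, a vault RNA (3.30). Ackr1 read 7.87 in Adult replicate 1 and 6.89 in Adult replicate 2, the same order as the endothelial markers, and a part of vessel cells in it was not tested. Dnajb1, a heat shock co-chaperone, read 8.25 and 8.62 at P7, 11.29 and 10.53 in Adult and 8.78 and 8.59 in Aged, so the Aged arrays lay near P7. Of the 15 largest rises, Aldh1a1, Ces1d, Lrrc30 and Cd55 kept the call without any 1 array. The other 11 lost it without P7 replicate 1 (0.0554 to 0.243) or P7 replicate 2 (adjusted p 0.0648 to 0.287), Cbr2, Tspan8, Ackr1 and Pla2g7 without either P3 array, and Cbr2, Cntfr and Cyb5a without either Aged array.

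**Figure D3:**
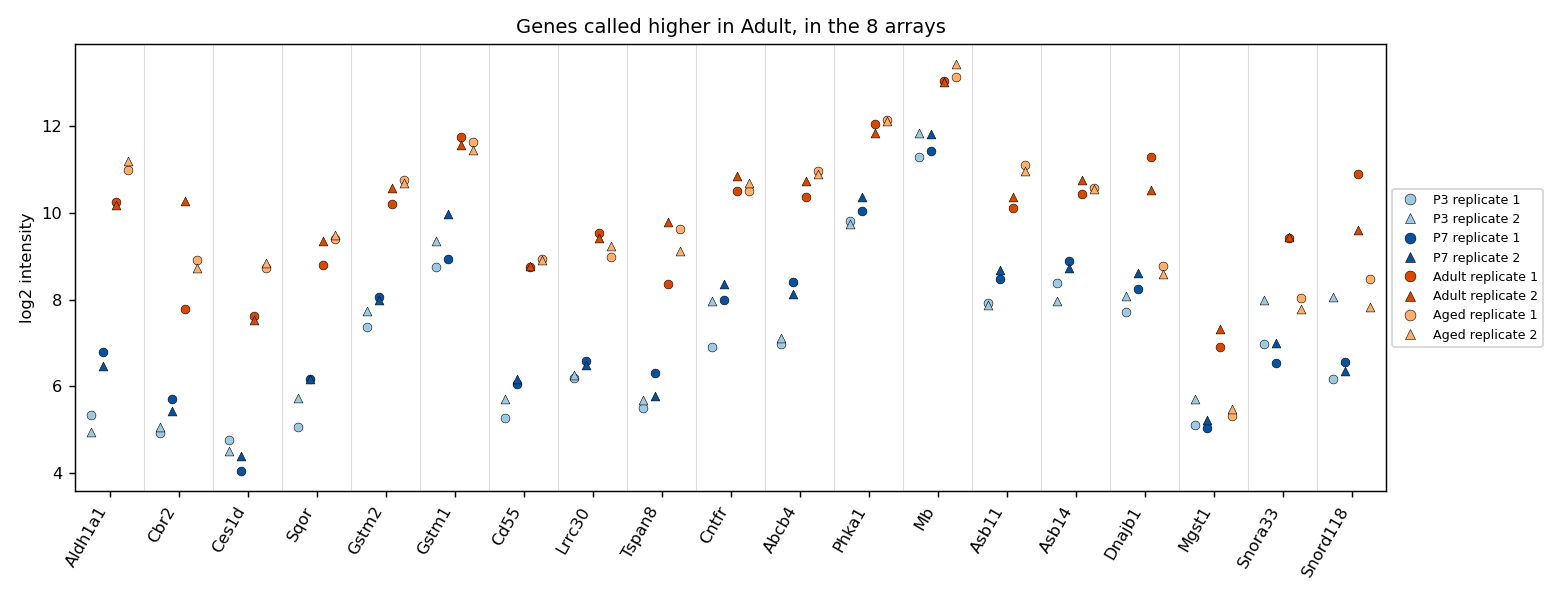
Log2 intensity of 19 of the genes called higher in Adult, in each of the 8 arrays, with circles for replicate 1 and triangles for replicate 2 of each age. The Adult points lie above the P7 points for each gene, which a call requires, as for Aldh1a1 (10.25 and 10.17 against 6.79 and 6.46). The Aged points of Dnajb1 (8.78 and 8.59) lie near its P7 points.

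Each list of energy metabolism genes held 1 or 2 calls, where 1.07% of all genes were called higher and 2.51% lower. Mb (myoglobin), the oxygen store of muscle, read 11.44 and 11.82 at P7 and 13.04 and 13.03 in Adult (1.40 ± 0.24, adjusted p = 0.0278 by limma). Phka1, the muscle subunit of phosphorylase kinase, rose by 1.74, and Pfkfb3, which makes the activator of phosphofructokinase, by 1.54, and they were the 2 calls among 36 tested glycolysis and glycogen genes (median 0.14). On the mitochondrial side 1 of 35 genes was called, Idh2, an isocitrate dehydrogenase, which fell from 11.71 and 12.06 to 10.38 and 10.44. In fatty acid use 1 of 36 was called, Hadh, a beta-oxidation enzyme, which fell from 12.68 and 12.72 to 11.47 and 11.46. Eef1a1, the general elongation factor, read 13.28 and 13.36 at P7 and 12.98 and 11.65 in Adult, lower in both Adult arrays but not called (adjusted p = 0.215 by limma). Its muscle form Eef1a2 overlapped, at 12.24 and 12.27 against 11.90 and 12.78. The glucose transporter Slc2a4 lay higher in both Adult arrays, at 11.55 and 11.31 against 10.77 and 11.04, and was not called (0.53 ± 0.24, adjusted p = 0.273 by limma).

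Thrb, a thyroid hormone receptor, rose from 5.60 and 5.14 at P7 to 6.94 and 7.40 in Adult (1.80 ± 0.34, adjusted p = 0.0354 by limma) and was the call among 12 tested thyroid hormone genes. Asb11 and Asb14, substrate adaptors of ubiquitin ligases, rose by 1.66 and 1.79. Their relative Asb15 read 6.80 and 7.86 at P7 and 10.04 and 9.12 in Adult, with an adjusted p of 0.0551 by limma. With the genes of the paragraph above, Mb, Phka1, Pfkfb3, Hadh, Idh2, Thrb, Asb11 and Asb14 make 8 calls, and none of the 8 held without either P7 array (0.0542 to 0.272). Without Aged replicate 2, 1 of the 8 held, and without Aged replicate 1, 2 did.

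A further 7 rises outside the naming rule were picked after their values were seen. Il15, a cytokine made by muscle, read 5.24 and 5.45 at P7 and 7.41 and 6.92 in Adult (1.82 ± 0.23, adjusted p = 0.00909 by limma). Crhr2, the urocortin receptor, read 7.43 and 7.36 at P7 and 9.06 and 9.29 in Adult (1.78 ± 0.23). Esr1, an estrogen receptor, rose by 1.59, Klf15, a factor driven by glucocorticoids, by 1.44 and Nr1h3, an oxysterol receptor, by 1.34. S100a1, a calcium sensor that binds the ryanodine receptor, read 9.33 and 9.62 against 11.55 and 11.54 (2.07 ± 0.22), and Amy1, an amylase, 4.94 and 5.17 against 7.15 and 7.29 (2.16 ± 0.19). The pairs were apart for each, which a call requires. Amy1 kept its call without any 1 array and S100a1 was lost without P7 replicate 1 only, while the other 5 lost it without either P7 array (adjusted p up to 0.234), and Esr1, Klf15 and Nr1h3 without either Aged array.

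Small nucleolar RNAs, many of which guide chemical changes of ribosomal RNA, were mostly higher in Adult than at P7. Of 53 on the array 48 were tested. Among these, 9 were called higher and 1 lower (DQ267102), where 1.07% and 2.51% of all genes were. A further count is the 33 that lay above P7 in both Adult arrays, where 18.6% of all genes did. With no filter, 6 of 53 were called higher and 2 lower, where 0.627% and 1.33% of all genes were. In that fit 34 lay higher without overlap and 6 lower, where 29.5% and 18% of all genes did, and the median was 0.79 against 0.09. Snord118, also known as U8, read 6.56 and 6.36 at P7 and 10.89 and 9.61 in Adult (3.79 ± 0.66, adjusted p = 0.0278 by limma). Snora3 rose by 3.28, Snora33 by 2.66, Snora44 by 2.65, Snora16a by 2.28 and Snora62 by 1.91. Snora21, Snora69 and Snora7a rose by 1.18 to 1.43. By the rule for a call, the Adult values were above both P7 arrays for all 9. Snord118 read 6.16 and 8.06 in the P3 arrays and 8.47 and 7.84 in the Aged arrays, which overlap. In Aged against P3 the family's median was -0.37 against 0.87 here, with 0 called higher, where 4.08% of all genes were. There 22 lay lower without overlap and 5 higher, where 30.4% and 32.7% of all genes did. A difference between those contrasts was not tested. None of the 9 held without P7 replicate 1 (adjusted p 0.0808 to 0.192), 1 held without P7 replicate 2 (Snora44), 3 held without either Aged array, and 3 held with the replicate block. The family was chosen after its values had been seen.

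Circadian clock, immediate early, cytosolic ribosome, translation factor and housekeeping genes held no call by limma, with list medians between -0.24 and 0.06. An unadjusted p under 0.05 was found for 3 of 18 circadian clock genes, 2 of 26 immediate early genes, 0 of 21 cytosolic ribosome genes, 3 of 14 translation factors and 1 of 20 housekeeping genes, and for 2349 of all genes. For 7 of the 9 marker lists of other cells the median changed its sign with which Adult array was left out. The fibroblast median of -0.54 went to -2.07 without Adult replicate 1, with 9 of the 13 markers then called lower, where 9.39% of all genes were, and to 0.97 without Adult replicate 2, with 4 called higher, where 6.38% were. The endothelial median of 0.65 went to -0.37 and 1.82 in the same order. The slow sarcomere median of -2.69 went to -2.69 and -2.58, and the imprinted one of -2.60 to -2.38 and -2.20.

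**Figure D4:**
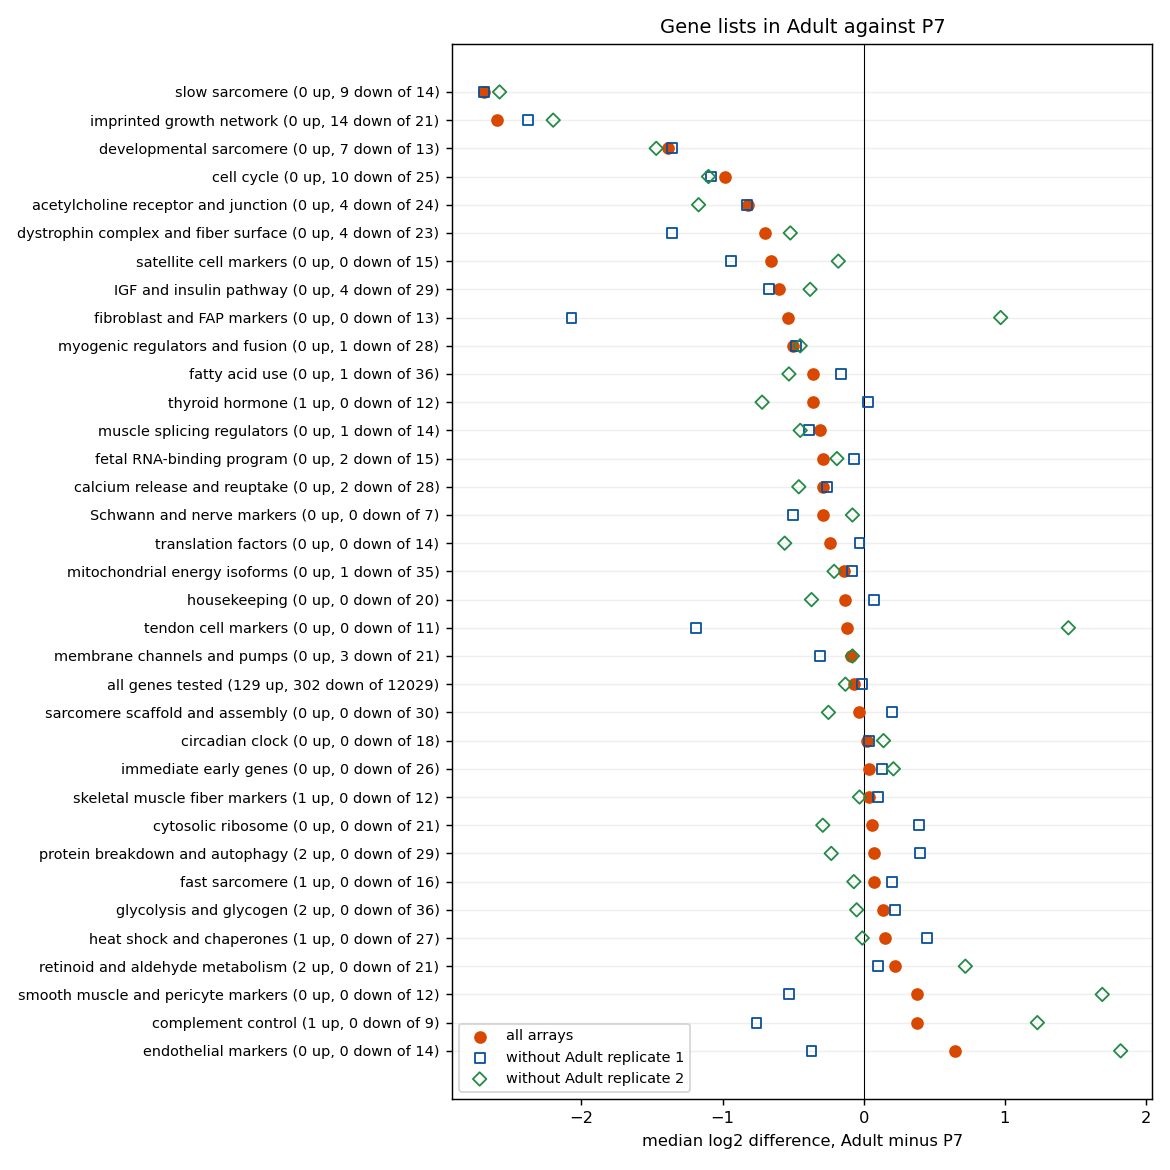
Median log2 difference, Adult minus P7, of each gene list with all arrays (filled circles), without Adult replicate 1 (squares) and without Adult replicate 2 (diamonds), with the genes called up and down of those tested beside each name. Slow sarcomere (-2.69, then -2.69 and -2.58) and imprinted genes (-2.60, then -2.38 and -2.20) lie lowest. The fibroblast, tendon, endothelial and smooth muscle lists lie on both sides of 0 depending on the Adult array.

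Aged and P3 fibers form another pair of mature and pup groups that shares no array with the comparison of Adult and P7, although the estimate of the spread is common to both. Of the 129 genes called higher in Adult, 104 (80.6%) were called higher in Aged against P3, where 4.08% of all genes were, and 119 (92.2%) lay higher without overlap, against 32.7% of all genes. Of the 302 called lower, 232 (76.8%) were called lower in Aged against P3, where 4.08% of all genes were too, and 293 (97%) lay lower without overlap, against 30.4%. The median difference of the genes called higher was 1.59 in Adult against P7 and 1.86 in Aged against P3, and that of the genes called lower was -1.77 and -1.75. The sign was opposite for 4 of the 129 (Mettl21e, Mgst1, Snora21 and Snora69) and for 3 of the 302 (Ereg, Ints2 and Zfand1). Among the cluster microRNAs all 26 tested lay lower in Aged than in P3 without overlap, and 16 were called.

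**Figure D5:**
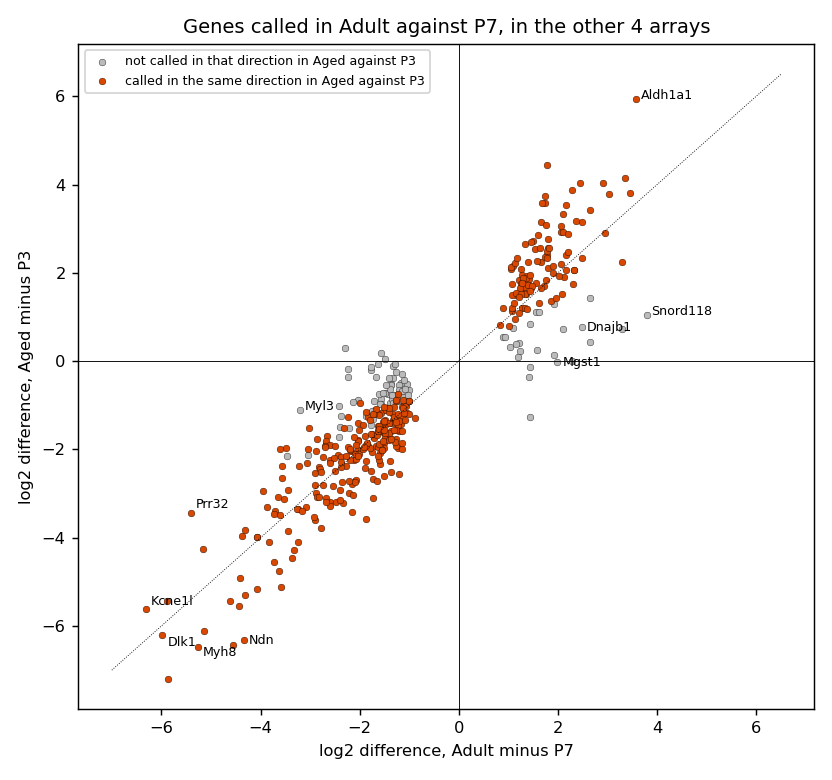
Log2 difference of each gene called in Adult against P7, plotted against its difference in Aged against P3, with colours for genes called in the same direction in Aged against P3 or not. Of the 129 genes called higher 104 carry the colour of a call in Aged against P3, and of the 302 called lower 232 do, with 7 points on the opposite side of 0.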

How the data were processed

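The members and gene lists were chosen with earlier results of these data known. The deposited values are probe set intensities on a linear scale (3.72 to 24410) that the authors made with RMA, per the submitters' processing notes. Its software, version and the return from log2 are not given in the sources used here. The design had assumed log2 values, so log2 was taken of each intensity. Of 34760 probe sets, the 21640 with exactly 1 gene symbol were used (1321 had several, 11799 none). Of their symbols, 21553 matched the RefSeq gene table (GRCm38.p6) by gene identifier. A probe set was kept if it exceeded the median of 2 or more arrays (13176), and the brightest probe set stood for each of the 661 genes with several, which left 12029 genes.

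limma 3.58.1 in R 4.3.3 was fitted to all 8 arrays with 1 mean for each of the 4 ages and a prior with a mean-variance trend (4 residual and a median of 3.34 prior degrees of freedom). The contrasts Adult minus P7 and Aged minus P3 were tested two-sided with Benjamini-Hochberg adjustment. Genes were named from the 15 largest rises and falls among the calls (predicted genes and small RNAs aside), the calls of each list and a fixed list. The plan set up to 8 calls of each list, and some lists have more named here. Not every gene of the fixed list is given. Others are marked as picked after their values were seen. Data for Adult against P7 over 12029 genes were simulated in 20 draws, with 200 genes changed in each. The fit recovered 13.8%, 63.1% and 84.5% of genes changed by 1, 2 and 3 log2 units, and 4.65% of its calls were false. Each simulated gene had the same spread in all 4 ages. In the data the median SD was 0.35 in Adult and 0.19 at P7, so these shares may not hold there. The number of arrays limits the precision, and the median SE of a difference was 0.293. matplotlib 3.10.9, NumPy 2.4.6 and pandas 2.3.3 under Python 3.11.15 served for the rest. Alternatives covered scaling, filter, probe sets, arrays in the fit, array weights, prior, replicate block, an added constant and each array left out.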

Additional observations from a re-analysis of the deposited data

How the results depend on the processing

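No called gene was reversed by any alternative. The numbers of genes called higher and lower were 129 and 302. They were 81 and 186 with the stricter filter (above the 75th percentile), 6 and 39 with the P7 and Adult arrays alone in the fit, 21 and 89 with array weights (0.298 for Adult and 3.351 for Aged), 5 to 767 and 41 to 1129 with 1 array left out, and 195 lower with equal housekeeping means. Genes lying apart numbered 2236 higher, 3121 lower and 5357 in all. They were 5885 higher and 9466 in all with no filter, 867 and 3009 with the stricter filter, and 2236 to 4815 higher, 3121 to 5881 lower and 5357 to 9901 in all with 1 array left out, where fewer arrays have to lie apart. The share of calls that were higher was 29.9%, against 42.3% with equal housekeeping means, 13.3% with 4 arrays and 19.1% with array weights. Among genes lying apart it was 41.7%, against 52.4% with cyclic loess, 56.0% with equal housekeeping means, 62.2% with no filter and 28.8% with the stricter filter. The replicate block gave 91 higher and 256 lower. Deviations of same-numbered arrays had a correlation of -0.008 for P7 with Adult, 0.385 for P3 with P7 and -0.459 for Adult with Aged, and the numbers were not taken as pairs. Other alternatives (equal array medians, mean of probe sets, a prior with no trend and an added constant of 16) kept both counts within 1.5 times. Over the 431 called genes and all alternatives, 5115 values kept their side of the threshold and 2932 no longer passed it. The causes were not tested. With 2 arrays a group and a median SD of 0.35 in Adult and 0.19 at P7, differences under about 1 log2 unit mostly did not pass. The simulated recovery of 13.8% for a change of 1 log2 unit took the spread as equal in all ages.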
